A study of Mus musculus with 2 samples.

Results

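The respiratory chain genes were described in mouse glioma cells as 108 of the 16859 genes listed for both libraries, 95 of them in the nucleus and 13 in mitochondrial DNA. Among the genes listed for both libraries, a gene was included by its symbol: mt- for the mitochondrial genes, and Nduf, Uqcr, Atp5, Sdh or Cox with a number from 4 to 8 for the nuclear genes. Beyond that listing, the rule used no measured value, although it was chosen with earlier results of these data known. The series holds 1 group of 2 libraries, named pool 1 and pool 2 below, and each pool combines 2 tumours whose cells were mixed ahead of partitioning, so no cell could be traced to its tumour. All tumours arose in C57BL/6 mice after PDGFB, a growth factor that drives glial precursors, had been transferred in utero into the embryonic telencephalon. They were taken at about 40 days after birth, and a GFP sort selected the cells. The study has no control group. Of each pool 4000 cells entered a 10x Genomics 3′ run, chemistry version 3.1. Reads were counted as unique molecular identifiers (UMIs), each standing for 1 captured RNA molecule.

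The respiratory chain passes electrons from NADH and succinate to oxygen through complexes I to IV, and complex V, the ATP synthase, uses the proton gradient that results. Complexes I, III, IV and V combine subunits translated inside mitochondria from mitochondrial DNA with nuclear subunits imported from the cytosol, whereas complex II is wholly nuclear. The mitochondrial genes are transcribed as long polycistronic RNAs from the heavy and light strands and cut apart, while each nuclear gene has its own promoter, and NRF1, GABP (an ETS factor) and YY1 are textbook regulators of many of them.

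Barcodes with fewer than 500 genes or more than 15% mitochondrial UMIs were removed, leaving 3506 of 3843 barcodes in pool 1 and 3278 of 3650 in pool 2, with medians of 7440 and 11272 UMIs. The pools shared 4 barcodes. Oligodendrocyte precursor markers were the most abundant of the marker lists, at 9995 and 9431 CPM (UMIs of a gene scaled to the library's total) summed over 8 genes, and pericyte or smooth muscle markers were at 2.06 and 1.58 CPM. With 1 library a pool, intervals on levels cover counting error only, and differences between pools have no test.

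Promoters of 78 of the nuclear genes were found among RefSeq entries of build GRCm38.p6 (83 promoters, each from 250 bases before to 50 bases after the start). The NRF1 word, GCGCA and GCGC with any base between them (GCGCATGCGC or GCGCAGGCGC in Cox6a1 below), on either strand, was in 26.5% of them, against 4.6% of all 32851 promoters and 6.82% of the 7019 promoters of the same GC range. The ETS word CCGGAAG was in 26.5%, against 8.86% of all and 14.1% at the same GC. The YY1 word was in 7.23%, against 0.852% and 1.58%. The hypoxia-factor words ACGTG or GCGTG were in 66.3%, against 43.8% and 55%, so this short word was common everywhere. A match is a description of letters and was not tested as a site. The 250 bases before the start of 5 genes are shown to set widely expressed subunits beside a rare isoform, with NRF1 and ETS words in capitals. Cox6a1 (chr5:115348959-115349208, minus strand) held 2 NRF1 words and 1 ETS word, and Sdha (chr13:74350241-74350490, minus strand) and Ndufb4 (chr16:37654369-37654618, minus strand) held 3 NRF1 words each. Cox6b1 (chr7:30626115-30626364, minus strand) held 1 ETS word, and its rare isoform Cox6b2 (chr7:4753095-4753344, minus strand) held none of the 4 words, counted over the whole 300 bases.
Cox6a1: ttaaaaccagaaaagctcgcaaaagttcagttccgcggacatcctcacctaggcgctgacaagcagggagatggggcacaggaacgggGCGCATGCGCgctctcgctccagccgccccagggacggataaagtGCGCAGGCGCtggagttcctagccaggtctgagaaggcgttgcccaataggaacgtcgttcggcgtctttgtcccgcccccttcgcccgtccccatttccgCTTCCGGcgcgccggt
Sdha: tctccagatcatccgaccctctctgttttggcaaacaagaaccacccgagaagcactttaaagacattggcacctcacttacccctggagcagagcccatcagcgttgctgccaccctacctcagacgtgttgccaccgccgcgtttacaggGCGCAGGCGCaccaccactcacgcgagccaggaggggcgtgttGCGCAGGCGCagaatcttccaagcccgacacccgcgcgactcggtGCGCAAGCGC
Ndufb4: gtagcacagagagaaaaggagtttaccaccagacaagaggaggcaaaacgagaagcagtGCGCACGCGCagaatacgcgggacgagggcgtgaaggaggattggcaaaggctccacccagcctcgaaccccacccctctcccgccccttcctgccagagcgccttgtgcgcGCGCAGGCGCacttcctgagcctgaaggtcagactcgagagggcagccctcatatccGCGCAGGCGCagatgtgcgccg
Cox6b1: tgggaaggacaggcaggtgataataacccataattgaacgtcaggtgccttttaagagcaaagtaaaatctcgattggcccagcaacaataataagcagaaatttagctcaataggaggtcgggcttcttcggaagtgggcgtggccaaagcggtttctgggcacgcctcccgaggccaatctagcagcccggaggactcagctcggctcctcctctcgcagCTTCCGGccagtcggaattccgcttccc
Cox6b2: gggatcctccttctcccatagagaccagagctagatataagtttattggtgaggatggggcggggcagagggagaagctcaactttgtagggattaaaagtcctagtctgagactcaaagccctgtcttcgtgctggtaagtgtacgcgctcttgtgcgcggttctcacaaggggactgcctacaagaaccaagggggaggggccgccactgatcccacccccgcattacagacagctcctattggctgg

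Nuclear subunits were present at similar levels in the pools, and their medians differed by complex, with wide and overlapping ranges within most complexes. Together the 95 nuclear genes took 2.89% of UMIs in pool 1 and 3.17% in pool 2, a mean of 3.03% ± 0.20 (SD, n = 2). Since a 3′ library counts molecules and not fragments along them, CPM was not divided by transcript length. The median nuclear gene was at 262 CPM in pool 1 and 300 in pool 2. Subunits of complex IV, cytochrome c oxidase, led: Cox8a was at 1183 and 1235 CPM, Cox7c at 929 and 1128, and Ndufa4, an oxidase subunit in spite of its name, at 969 and 1052. Cox4i1 (928 and 1026) and Cox6c (907 and 1026) followed, and their counting intervals overlapped in pool 2.

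In complex I, the entry point for electrons from NADH, small supernumerary subunits were more abundant than the catalytic core. Ndufa13, a supernumerary subunit, was at 537 and 575 CPM, and the 30 supernumerary genes had medians of 256 and 292. The 7 core genes had medians of 145 and 153 CPM, with Ndufs1, which carries iron-sulphur clusters, lowest at 61.2 and 61.8, and Ndufv1, the NADH-binding subunit, at 89.6 and 92.6. Ndufv2 was the most abundant core gene, at 225 and 267 CPM. The 8 Ndufaf assembly factors, which are not part of the finished complex, were at medians of 41.6 and 43.6 CPM, from Ndufaf6 (14.3 and 14.4) and Ndufaf1 (17.7 and 16.3) to Ndufaf2 (96.7 and 94.2).

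Complex II, succinate dehydrogenase, had lower subunit medians (124 and 129 CPM) than complexes III (372 and 388), IV (482 and 508) and V (407 and 503). Its 4 subunits ran from Sdhd (98.3 and 107 CPM) through Sdha (115 and 115) and Sdhc (133 and 143) to Sdhb (155 and 158). Its assembly factors ran from Sdhaf3 (19.3 and 15.4 CPM) to Sdhaf1 (52.4 and 60.2). In complex III the core proteins Uqcrc2 (139 and 134 CPM) and Uqcrc1 (139 and 145) were lowest, and the small subunits Uqcr11 (473 and 551) and Uqcrh (541 and 583) highest. In complex V, Atp5b, the catalytic beta subunit, was at 727 and 778 CPM. The membrane ring subunit c is encoded by 3 genes with the same mature protein, of which Atp5g2 was at 747 and 776 CPM, Atp5g1 at 311 and 347, and Atp5g3 at 262 and 338. Atp5g2 gave 56.6% and 53.1% of the UMIs of the 3 ring genes.

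Subunits with tissue-restricted isoforms were almost wholly of the common form. Cox6a2, the heart and muscle form, gave 0.0229% of Cox6a UMIs in pool 1 (4 UMIs; 95% Clopper-Pearson interval 0.00624% to 0.0586%) and 0.0956% in pool 2 (23 UMIs; 0.0606% to 0.144%). Of the cells with a Cox6a2 UMI, 2 of 4 and 3 of 15 were among the 14 and 15 cells of a microglia-like cluster. Cox7a1, another muscle form, was at 0.99 and 1.21 CPM, against 513 and 552 for Cox7a2 and 284 and 283 for Cox7a2l. Cox7b2 was at 0.21 and 0.42 CPM against 402 and 441 for Cox7b, and Ndufa4l2 at 0.36 and 0.49 against 969 and 1052 for Ndufa4. Cox4i2, a form known for low oxygen, was listed for pool 2 alone, with 12 UMIs in 10 cells, and was therefore not among the 108. Of those 10 cells, 6 were in the class high for hypoxia genes described below and 1 held a UMI of a pericyte marker. That class held 207 of the 2446 cells of pool 2 deep enough to be classed. Of cells with a Ndufa4l2 UMI, 0 of 11 in pool 1 and 4 of 20 in pool 2 were in the class. For Cox7a1 these counts were 1 of 33 and 3 of 41, and none of these counts was tested.

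Cox6b2, best known from testis, was the exception among rare forms. It was at 16.6 and 12.3 CPM, with UMIs in 11.7% and 11% of cells, and gave 2.36% (2.17% to 2.56%) and 1.60% (1.46% to 1.74%) of Cox6b UMIs. In the microglia-like cluster 0 of 14 and 1 of 15 cells had a UMI, at shallower median depths of 1642 and 6847 UMIs. Cox6b2 was highest in c9, a small cluster with markers of committed oligodendrocyte precursors. Its level there was 42.4 CPM in pool 1 (36 UMIs; 95% Poisson interval 29.7 to 58.8) and 39.1 in pool 2 (22 UMIs; 24.5 to 59.3). The mean of the 7 other clusters, without c0 and the shallow c3, was 17.1 CPM in pool 1 and 13.3 in pool 2. In c3 it was 41.8 CPM in pool 1 (18 UMIs) and 1.71 in pool 2 (1 UMI).

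**Figure D1:**
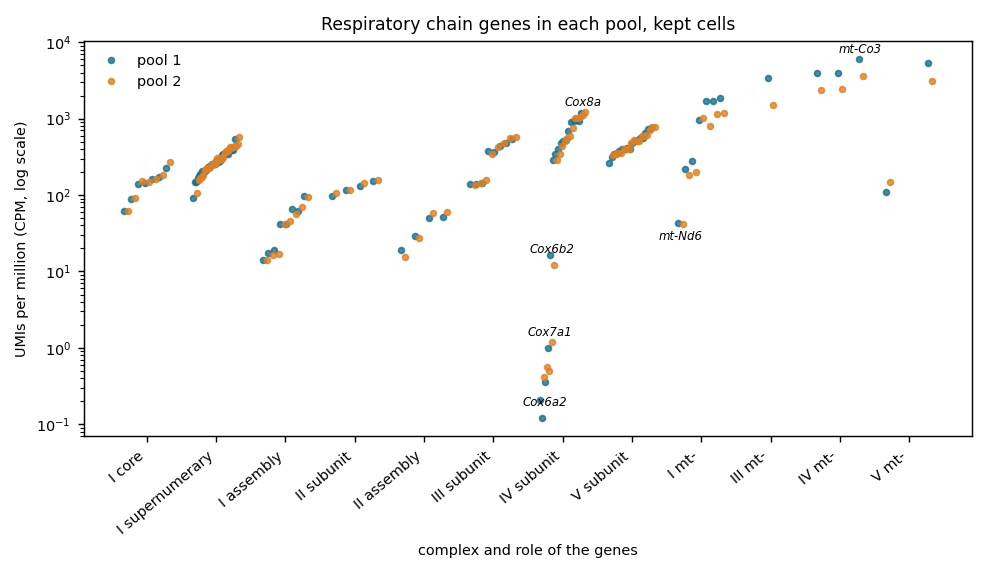
Level of each respiratory chain gene in kept cells (CPM, log scale) by complex and role, with a point for pool 1 and a point for pool 2. Most nuclear subunits lie between 100 and 1200 CPM, assembly factors lie lower, the rare complex IV isoforms lie below 2 CPM apart from Cox6b2, and mt-Co3 is the highest gene.

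The mitochondrial genes were lower in pool 2, unlike the nuclear genes. The 13 genes took 2.95% of UMIs in pool 1 and 1.78% in pool 2, a mean of 2.37% ± 0.83 (SD, n = 2). Of the 13, 11 were lower in pool 2, with a median log2 difference of -0.66, whereas 81 of the 95 nuclear genes were higher there, with a median of 0.12. Over the 7129 genes at 20 CPM or more in both pools, 3378 were higher and 3751 lower in pool 2, with a median of -0.01. Pool and tumours cannot be told apart from any difference in how the libraries were handled, and this contrast has no test.

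By role, the oxidase subunits mt-Co3 (6081 and 3567 CPM), mt-Co2 (3973 and 2444) and mt-Co1 (3943 and 2395) and the ATP synthase subunit mt-Atp6 (5280 and 3145) were the most abundant. Cytochrome b, mt-Cytb, was at 3393 and 1503 CPM. The complex I subunits were lower and spread widely: mt-Nd1 was at 1853 and 1170 CPM, mt-Nd2 at 1698 and 1165, mt-Nd4 at 1699 and 799, mt-Nd3 at 971 and 1009, mt-Nd5 at 277 and 199, and mt-Nd4l at 221 and 185. mt-Nd6, the only one of the 13 on the light strand, was lowest, at 42.9 and 42.1 CPM.

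The decrease in pool 2 was uneven along the genome. mt-Cytb (chrM:14145-15288) differed by -1.17 and mt-Nd4 (chrM:10167-11544) by -1.09 on the log2 scale, whereas mt-Atp8 differed by 0.41 and mt-Nd3 (chrM:9459-9806) by 0.05. As a share of mitochondrial UMIs, mt-Cytb was 11.5% in pool 1 and 8.46% in pool 2, and mt-Nd3 was 3.29% and 5.68%. These shares held in each cluster of 20 or more cells per pool: mt-Cytb and mt-Nd4 had the lower share in pool 2 in 10 of 10 clusters, and mt-Nd2, mt-Atp8, mt-Nd3, mt-Nd4l, mt-Nd5 and mt-Nd6 the higher share in 10 of 10. The ratio of mt-Cytb to mt-Nd3 ran from 3.23 to 3.87 over the clusters of pool 1 and from 1.12 to 1.83 in pool 2, so the ranges did not overlap.

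Neighbouring mitochondrial genes overlap, and reads in shared bases fit both. mt-Atp8 and mt-Atp6 share 43 bases on the heavy-strand transcript, at chrM:7927-7969 of GRCm38, plus strand. They are shown because mt-Atp8 was among the few genes that were higher in pool 2, while mt-Atp6 was lower, and the capitals mark the start codon of mt-Atp6.
mt-Atp8 and mt-Atp6: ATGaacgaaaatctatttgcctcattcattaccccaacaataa
mt-Nd4l and mt-Nd4 share 7 bases on the same strand, and mt-Nd5 and mt-Nd6 share 14 on opposite strands. Over the last 300 bases of each transcript, 98.6% or more of all 90-base words of mt-Co1, mt-Co2, mt-Atp6, mt-Co3, mt-Nd3 and mt-Nd4l also occurred in transcripts of other annotated genes. Among the nuclear genes this share was over 50% for Cox7c (59.9%), Atp5l (56.9%) and Atp5g2 (50.5%), and their counts are uncertain to that extent. No such word was shared for 82 of the 107 members with an annotated transcript, mt-Cytb and mt-Nd4 among them.

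**Figure D2:**
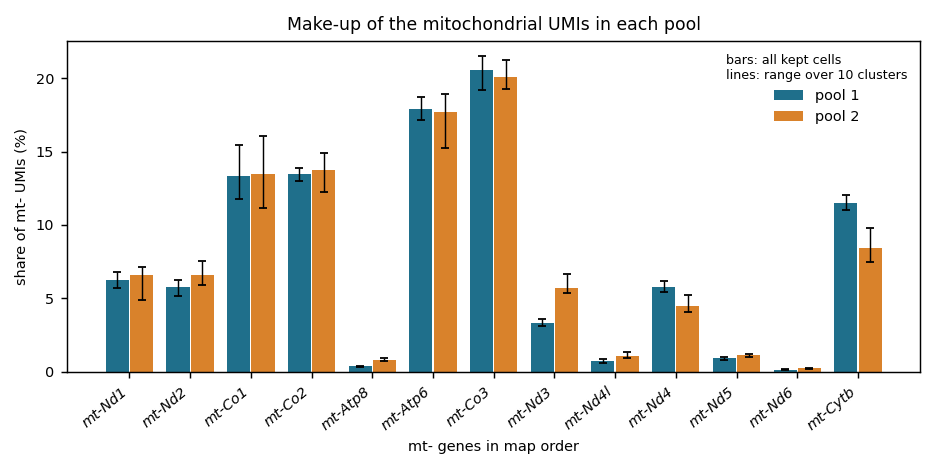
Share of the mitochondrial UMIs held by each of the 13 genes in map order, in percent, for pool 1 and pool 2; bars are all kept cells and lines the range over 10 clusters. mt-Nd4 and mt-Cytb have the lower share in pool 2 and mt-Nd3 and mt-Atp8 the higher share, with ranges over clusters that do not overlap.

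Nuclear and mitochondrial shares ran in opposite directions from cell to cell. The median cell gave 2.42% of its UMIs to nuclear members and 2.97% to mitochondrial ones in pool 1, and 3.00% and 1.44% in pool 2. Nuclear UMIs outnumbered mitochondrial ones in 42.2% and 67.7% of cells. Across cells Spearman's rho between the shares was -0.45 (3506 cells) and -0.43 (3278 cells), and -0.45 (3117 cells) and -0.37 (2874 cells) after each cell was thinned to 2000 UMIs. Both shares have the same denominator, and cells of 1 pool share a library, so these are descriptions.

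Depth moved with these shares. In pool 1 the median nuclear share was 0.976%, 1.01%, 3.24% and 3.30% from the shallowest to the deepest depth quartile, and in pool 2 it was 1.23%, 2.93%, 3.35% and 3.28%. The removed barcodes, mostly shallow, held 17.1% and 16.0% mitochondrial and 1.12% and 1.38% nuclear UMIs when summed. A high mitochondrial share was itself a ground for removal, so these sums do not describe depth. Among removed barcodes, rho between mitochondrial share and depth was 0.60 in pool 1 and 0.54 in pool 2. Removal was for few genes or a high mitochondrial share, so a deep barcode was removed mainly for a high share. That rho is therefore set at least in part by the filter and does not show how the share moves with depth. Over all barcodes, kept and removed, it was -0.34 in pool 1 and -0.32 in pool 2. Within depth quartiles, from shallow to deep, rho between the shares was -0.15, -0.36, -0.34 and -0.19 in pool 1 and -0.41, -0.38, -0.20 and -0.18 in pool 2. In cells of at least 1000 genes and 5% or less mitochondrial UMIs, rho was -0.17 in pool 1 and -0.26 in pool 2. In those cells of pool 1 the median nuclear share was 2.96% and the median mitochondrial share 2.22%, and 57.5% of cells held more nuclear UMIs. The 5% limit itself removes cells of high mitochondrial share. The turned order is therefore partly set by the filter, and the filter's part in the weaker rho was not tested.

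**Figure D3:**
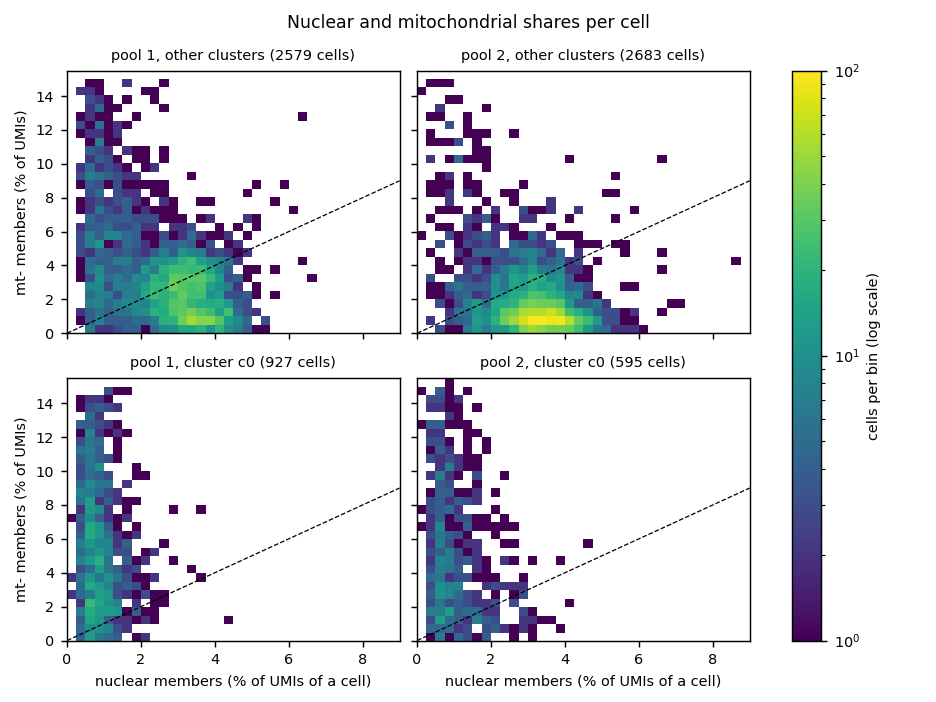
Cells counted by their nuclear share (horizontal axis, percent of UMIs) and mitochondrial share (vertical axis, percent of UMIs), for each pool and for cluster c0 against other clusters; colour gives cells per bin on a log scale and the dashed line equal shares. Cluster c0, with medians of 0.802% and 0.883% nuclear UMIs, forms a narrow band at low nuclear shares that reaches up to the 15% limit.

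The low nuclear shares were concentrated in cluster c0, which held 26.4% (pool 1) and 18.2% (pool 2) of the cells. Clusters were formed without respiratory and ribosomal genes, 10 core cycling genes and 20 hypoxia genes, and their differences carry no test. Other cell cycle genes were not left out, and clusters c4 (with Cdc20) and c7 (with Mcm3) are led by such genes. c0 gave 0.978% and 1.34% of its UMIs to nuclear members and 5.38% and 4.87% to mitochondrial ones, the lowest and the highest of the 10 clusters that had 20 or more cells in each of the pools. Against the other cells, 92 and 90 of 95 nuclear genes were lower in c0, with median log2 differences of -1.66 and -1.25, and 13 of 13 mitochondrial genes were higher, with medians of 1.04 and 1.57. Ndufs8, a core subunit of complex I, was at 32.3 CPM in c0 and 150 in other cells of pool 1, and at 51.2 and 158 in pool 2. Cox4i1 was at 296 against 1006 CPM in pool 1 and 422 against 1058 in pool 2, and mt-Co1 at 6651 against 3610 and 5439 against 2236. Ndufs1 (66.7 against 60.5 CPM, and 81.0 against 60.8), Ndufaf4 and Ndufaf7 were slightly higher in c0 in both pools.

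Other genes moved with c0 as well. Its cells had medians of 3157 and 2543 UMIs, and the nuclear-retained RNA Malat1 was at 97559 and 111340 CPM, the highest of the 10 clusters in each pool. Cytosolic ribosomal protein genes were lower there in 82 of 82 (median log2 differences of -1.85 and -1.51), and mitochondrial ribosomal protein genes in 77 of 78 (-1.37 and -1.0), while the 7432 genes at 20 CPM or more had medians of 0.12 and 0.04. Nuclear members with a longest transcript under 1000 bases were at -1.80 and -1.36 (47 genes), longer ones at -1.48 and -1.13 (38 genes), and 363 other short genes at -1.51 and -1.20. Within the shallowest quartile, c0 cells still gave 0.895% of UMIs to nuclear members against 1.59% in other cells of pool 1, and 1.02% against 2.34% in pool 2. Across genes, which are not independent replicates, Spearman's rho between transcript length and the log2 difference in c0 was 0.48 and 0.45 over 85 nuclear members and 0.73 and 0.70 over 7285 genes. The part of RNA quality in this pattern was not tested.

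Apart from c0, clusters differed less in nuclear share. The mitochondrial share outside c0 still ran from 2.04% (c2) to 4.53% (c3) in pool 1. In pool 2 it ran from 1.07% (c8) to 2.77% (c3). The highest nuclear share was in c2 in both pools, at 3.74% and 4.07%, and the lowest outside c0 was 2.55% in c1 of pool 1 and 3.00% in c8 of pool 2. Over the 8 compared clusters other than c0 and the shallow c3, 55 of 91 nuclear genes at 10 CPM or more (60.4%) were highest in c2 in both pools, against 6.47% of all 9464 genes of that level, and 85 of 91 were in no cluster over 1.5-fold above or below the mean of the others in both pools. The leading genes of c2 were Otos, Meox1 and C1ql1, and it received no cell type name. The complex II assembly factor Sdhaf4 was at 72.6 CPM in c2 of pool 1 and had a fold of 1.82 over the other clusters in pool 2. Ndufaf3, an assembly factor of complex I, was highest in c4, whose leading genes are mitotic (72.9 CPM in pool 1), and lowest in c7, whose leading genes act in DNA replication (26.1 CPM in pool 1). Its level in c4 was 1.75 times the mean of the others in pool 2, and in c7 0.463 times.

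In the committed precursor-like c9, 15 of the 91 genes (16.5%) were lowest and 5 (5.49%) highest in both pools, against 22.0% and 12.6% of all genes of that level, in a cluster of 60 and 36 cells. The lowest included Cox7a2l, which takes part in joining complexes III and IV, at 154 CPM in pool 1 (131 UMIs) and 0.564 times the mean of other clusters in pool 2. Sdhaf3 in c9 rested on 9 UMIs in pool 1, with an interval in pool 2 of 1.10 to 15.6 CPM.

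**Figure D4:**
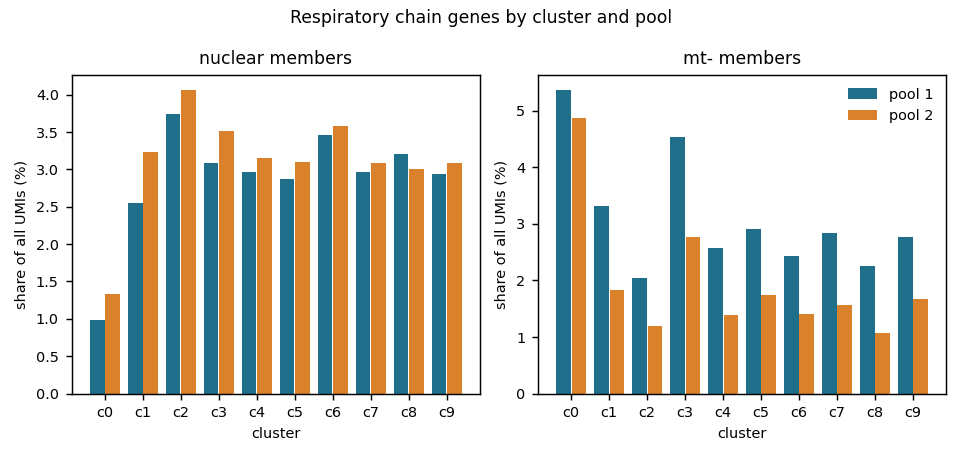
Share of all UMIs held by nuclear members (left) and mitochondrial members (right), in percent, for the 10 clusters of 20 or more cells per pool; bars are pools. c0 has the lowest nuclear share and the highest mitochondrial share in both pools, and mitochondrial shares of pool 2 lie below those of pool 1 in each cluster.

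By cycling state, 19 nuclear members passed the test as lower and 2 as higher, and most passed in neither direction. State was called from a random division of the counts and tested on the rest: cells with UMIs of at least 2 of 10 core cycling genes (437 and 305 cells) were compared with cells that had none (1624 and 1888), summed in each pool and depth quartile of the cells deep enough to thin. Each of the 16 sums held 42 to 507 cells. By edgeR's quasi-likelihood test with Benjamini-Hochberg adjustment over all 10832 genes, at a threshold of 0.05, 16.9% of all genes were called higher and 14.7% lower in cycling cells. With RLE scaling the split was 1673 higher and 1870 lower, against 1831 and 1589. Of the 91 nuclear members tested, 2 were higher (2.20%) and 19 lower (20.9%), with a median log2 difference of -0.10 against -0.02 over all genes. Sums of 1 pool share tumours, so p-values reflect variation over these sums and do not extend to other tumours.

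The lower genes were mainly small subunits of complexes I, III, IV and V. Ndufb2, a supernumerary subunit of complex I, was at 70.5 to 253 CPM (median 223) in cycling sums and 163 to 319 (median 295) in non-cycling sums, and its fitted log2 difference was -0.47 ± 0.09 (SE; adjusted p = 6.12e-05, edgeR). It was lower in 8 of 8 blocks, while the ranges of the groups overlapped, as they did for each of the 21 called members. Uqcr11, a small subunit of complex III, was at 208 to 495 CPM (median 450) in cycling and 288 to 611 (median 563) in non-cycling sums, a difference of -0.39 ± 0.09 (adjusted p = 0.000339, edgeR). Cox7b of complex IV had medians of 382 and 466 CPM and differed by -0.33 ± 0.09, and Atp5e, the epsilon subunit of complex V, had medians of 633 and 751 CPM and differed by -0.30 ± 0.09. Among complex I subunits, Ndufa7 (-0.35), Ndufv3 (-0.34), Ndufa6 (-0.34), Ndufa13 (-0.33) and Ndufb4 (-0.29), whose promoter is printed above, were also lower. In all, 7 of 30 supernumerary and 2 of 7 core genes of complex I, 2 of 8 of complex III, 3 of 13 tested of complex IV and 3 of 17 of complex V fell. None of the 4 subunits of complex II was called, while its assembly factor Sdhaf4 fell by 0.44 on the log2 scale (adjusted p = 0.00601, edgeR).

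The 2 genes that rose were assembly factors of complex I. Ndufaf2 was at 62.7 to 154 CPM (median 110) in cycling and 48.6 to 108 (median 95.8) in non-cycling sums, a log2 difference of 0.32 ± 0.09 (adjusted p = 0.00591, edgeR). Ndufaf4 had medians of 70.2 and 56.4 CPM and differed by 0.35 ± 0.11 (adjusted p = 0.0143, edgeR). Ndufaf1, a further assembly factor, fell, with a difference of -0.52 ± 0.21 (adjusted p = 0.0496, edgeR) at medians of 12.3 and 17.5 CPM.

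No mitochondrial gene was called by cycling state. The smallest adjusted p was 0.112 for mt-Nd4l (-0.19 ± 0.09, edgeR), 1 of 13 had an unadjusted p under 0.05, and 12 of 13 fitted differences were below 0, with a median of -0.09. The pools did not go the same way: averaged over depth quartiles, 11 of 13 genes were above 0 in pool 1 and 0 of 13 in pool 2. mt-Co1 ran from 1800 to 6623 CPM (median 2672) in cycling and 2058 to 5889 (median 3242) in non-cycling sums. In the shallowest quartile of pool 1, cycling sums held 1.27% nuclear and 5.63% mitochondrial UMIs against 1.81% and 4.72% in non-cycling sums, and in its next quartile 2.26% and 4.34% against 3.16% and 2.53%. In the other 6 blocks the ratio of nuclear to mitochondrial UMIs was higher in cycling sums, by 0.08 to 0.30 on the log2 scale.

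The counts by cycling state depended on the pool and on the block. Without pool 1, 4 nuclear members were lower and 4 higher, and 5 mitochondrial genes were lower. Without pool 2 these counts were 18, 1 and 0. Of the genes named above, Ndufb2 and Uqcr11 passed without either pool. Ndufa7, Ndufv3, Ndufa6, Cox7b, Ndufa13, Atp5e, Ndufb4 and Ndufaf4 no longer passed without pool 1, and Sdhaf4 and Ndufaf2 without pool 2. With pool and cluster as the block, 0 nuclear members were called in either direction, where 61 of all 6640 genes were higher and 32 lower. A block needed at least 5 cells of each state. Clusters c4 and c8, led by mitotic and histone genes, gave no block, and the smallest cycling sum held 7 cells. That fit therefore left out the cycling cells of c4 and c8. Without clusters c0 and c3, chosen after seeing the data, 19 nuclear members were again lower and 2 higher.

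The other lists of the pathway were counted in the same fit, which called 16.9% of all genes higher and 14.7% lower. The lists were not compared with each other, and median differences were 0.01 for mitochondrial ribosomal proteins, -0.02 for the citric acid cycle, -0.07 for the electron carrier list and -0.02 over all genes. Beside electron carriers, that list holds genes of coenzyme Q synthesis, mitochondrial membrane transport (Slc25a and Vdac genes) and the ATP synthase inhibitor Atpif1. The list for mitochondrial transcription and replication holds factors of nuclear promoters as well as genes that act on mitochondrial DNA. Of its 25 tested genes, 6 rose in cycling cells and 0 fell, with a median of 0.05. The 4 of smallest p included the nuclear-promoter factors Nrf1 (0.92 ± 0.13 log2, adjusted p = 1.48e-07, edgeR), Gabpb1, a subunit of GABP (0.97), and Yy1 (0.29). The remaining gene was the mitochondrial DNA polymerase Polg (0.55). Of 38 assembly factors outside the symbol rule, 1 rose (Cmc2, 1.66) and 7 fell, with Higd2a at -0.78, Uqcc3 at -0.51 and Pet100 at -0.46. Mitochondrial ribosomal proteins were split, 8 higher and 6 lower of 78, with Mrpl51 (0.60) and Mrpl30 (0.35) rising and Mrpl34 (-0.40) and Mrps21 (-0.34) falling. Of 18 genes of the citric acid cycle and pyruvate dehydrogenase, 3 rose, fumarase Fh1 (0.39), citrate synthase Cs (0.29) and Idh3g (0.27), and Pdha1 fell (-0.34). Of 23 tested genes of the electron carrier list, 2 rose, Coq7 (0.45) and cytochrome c, Cycs (0.31). In the same list 4 fell, with Coq8a at -1.0 and the adenine nucleotide carrier Slc25a4 at -0.35. Of 15 glycolysis genes 0 rose and 8 fell, and the 4 of smallest p were Aldoc (-1.75), Aldoa (-1.01), Gpi1 (-0.86) and Ldhb (-0.38).

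Between cells high and low for hypoxia genes, no respiratory chain gene passed the test. The class high for 20 hypoxia genes that include no member held 169 and 207 cells with at least 4 thinned UMIs, and was compared with 1421 and 1426 cells at or below the median of 1; 263 and 249 cells lay just below the threshold and 100 and 105 just on it. Of 9294 genes, 1.15% were higher and 0.635% lower by edgeR's quasi-likelihood test. With library sizes as the only scaling, the higher share of the calls moved from 64.5% to 50.9%. Of 91 nuclear members 0 were called; 1 was higher and 2 lower at an unadjusted p under 0.05, the smallest adjusted p was 0.289, and the median was -0.0046 against 0.0048 over all genes. Differences in each depth quartile were also taken as log2 CPM, with TMM scaling over all genes before the low-count filter. Averaged over quartiles, 81 of 91 were below 0 in pool 1 and 72 in pool 2, with medians of -0.18 and -0.08. In the fit 48 of 91 were below 0. The share of all genes below 0 was not computed for these averages, so they do not show a fall particular to the members. With no low-count filter, the fitted median over all genes was itself -0.085. Sdhaf1 had the smallest adjusted p, at medians of 40.7 CPM in high and 58.6 in low sums (-0.38 ± 0.15 log2), with overlapping ranges.

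Of 13 mitochondrial genes 0 were called, although 12 of 13 fitted differences were above 0, with a median of 0.15, and 5 had an unadjusted p under 0.05. mt-Co1 was at 2612 to 5931 CPM (median 3417) in high and 1904 to 5846 (median 3219) in low sums, a difference of 0.24 ± 0.07 (adjusted p = 0.0874, edgeR). mt-Co2 differed by 0.22 ± 0.07 (adjusted p = 0.146, edgeR). Averaged over depth quartiles, 5 of 13 were above 0 in pool 1 and 11 of 13 in pool 2, again without the share over all genes. Without clusters c0 and c3, 3 mitochondrial genes were called higher, and without pool 1, 1 was. Oligodendrocyte markers moved with the class in pool 2, at 5401 CPM in high against 458 in low cells, with 662 against 560 in pool 1, and Ndrg1 of the hypoxia list is a leading gene of the oligodendrocyte-like cluster. Without the microglia-like and oligodendrocyte-like cells, 0 nuclear and 0 mitochondrial genes were called, and the median of the mitochondrial genes was 0.09.

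Most glycolysis genes tested were higher in the same fit, which called 1.15% of all genes higher and 0.635% lower. Of 15 tested, 11 rose and 0 fell, with a median of 0.72, and the 4 of smallest p were Tpi1 (1.65 ± 0.10 log2, adjusted p = 1.13e-11, edgeR), Ldha (1.14), Gpi1 (1.69) and Pgk1 (0.95). Among the other lists, 0 of 34 assembly factors, 0 of 78 mitochondrial ribosomal proteins and 0 of 18 citric acid cycle genes were called. The electron carrier list had 0 of 21 called. Of 18 genes of the mitochondrial transcription and replication list 1 fell, Polg (-0.40 ± 0.10, adjusted p = 0.0249, edgeR). The comparisons by cycling and by hypoxia genes were not separate. Each core cycling gene tested here was lower in the high class, from -0.91 (Top2a) to -1.57 (Ccnb1), and the part of cycling state in these differences was not tested.

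**Figure D5:**
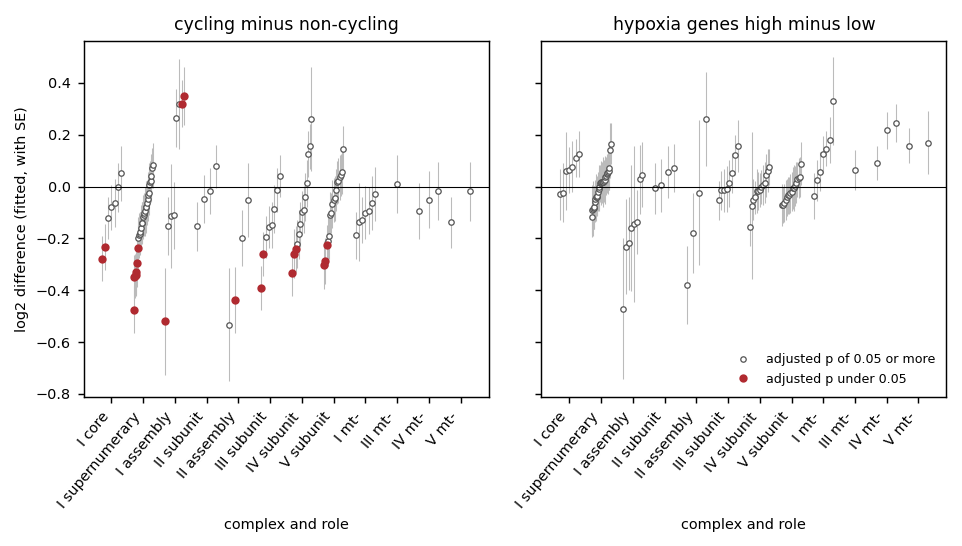
Fitted log2 difference of each tested respiratory chain gene with its standard error, by complex and role, for cycling minus non-cycling cells (left) and for cells high minus low in hypoxia genes (right); filled points passed an adjusted p of 0.05 (edgeR). In the left panel 19 nuclear genes lie below 0 and 2 above 0 as filled points, and in the right panel no point is filled.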

How the data were processed

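The deposited files hold UMI counts, as whole numbers for each gene in each barcode, which the authors had not normalized. They came from Cell Ranger 6.0.2 on GRCm38/mm10, per the submitters' processing notes; no source used here gives the settings or the cell calling. The cell filter was 500 genes and 15% mitochondrial UMIs. Scrublet called 0 and 2 doublets, so doublets stayed in, and in an alternative the 98 and 86 cells of highest score were left out. Gene positions and transcripts came from GENCODE vM21 and promoters from RefSeq.

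Each count was divided at random (binomial, 0.5). Training counts, thinned to 2000 UMIs per cell, called states, and 1144 and 832 cells had too few UMIs for this. Training counts of 1000 variable genes gave clusters (30 components, 15 neighbours, Leiden resolution 0.8, scanpy 1.11.5). A cluster was named only where 3 or more fixed markers were among its 10 leading genes. Held-out counts were summed by state in each pool and depth quartile and tested on all genes with edgeR 4.0.16 (R 4.3.3; TMM, filterByExpr, quasi-likelihood, block of pool and depth quartile, 7 residual degrees of freedom), Benjamini-Hochberg over all genes. The fit was tested on simulated data. Differences by pool are means of the log2 CPM differences of 4 blocks, with TMM scaling over all genes before the low-count filter. CPM intervals are exact Poisson and shares Clopper-Pearson, at 95%.

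Named genes were all mitochondrial members, isoform families, the extremes of each complex, up to 10 called members each way of at least 20 CPM and the same sign in both pools, and up to 4 called genes of each other list. Other members named by cluster or in c0, and Ndufaf1 and Sdhaf1 in the fits, were chosen after their values were seen. Members and lists were chosen with earlier results of these data known. The labels do not say whether tumours of the 2 pools came from the same animal, so the pools may not be independent; alternatives are given in the closing section.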

Additional observations from a re-analysis of the deposited data

How the results depend on the processing

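No fitted value of a named gene changed direction: for the 12 members named by cycling state, 180 values under alternatives gave 146 on the same side of the threshold and 34 that no longer passed it. Of the 19 nuclear members lower in cycling cells, the count became 29 with no low-count filter, 9 with a stricter cell filter (1000 genes, 5% mitochondrial UMIs), 0 with pool and cluster as the block and 1 with no replicate block, and 4 to 18 when a pool was left out. The 2 higher became 1 with no replicate block, 0 with pool and cluster as the block, 1 with a second random division, and 1 to 4 without a pool. Mitochondrial genes lower in cycling cells went from 0 to 1 with no filter, 3 with the stricter cell filter and 0 to 5 without a pool. Other genes of the pathway went from 20 higher to 9 with DESeq2, 13 with no filter, 9 with no replicate block, 0 with pool and cluster as the block and 6 to 14 without a pool, and from 26 lower to 9 with no replicate block, 2 with pool and cluster and 13 to 19 without a pool. By hypoxia class, nuclear members lower went from 0 to 1 with no filter, and mitochondrial genes higher from 0 to 2 with the stricter cell filter, 3 without clusters c0 and c3 and 0 to 1 without a pool. Pathway genes higher went from 11 to 7 with no replicate block, and the 1 lower gene was lost (0) with no replicate block, pool and cluster as the block, the stricter filter, a second division, the wider class of 20% or without either pool. The causes were not tested. Pool and cluster blocks tested fewer genes (6640 and 6734), and by cycling state they held no cells of c4 or c8. The median of the mitochondrial genes by cycling state turned from -0.09 to 0.09 without pool 2, and by hypoxia class from 0.15 to -0.01 with pool and cluster as the block. At clustering resolution 0.4 the highest nuclear share was 1.99 times the lowest, against 3.43. With 2 pools, counting error is small for abundant genes, and the number of tumours limits the precision; genes under 1 CPM rest on few UMIs.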
